A study of Homo sapiens with 4 samples.

Results

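The genes described here are 10 members of the cyclin D, CDK4/6 and RB axis that decides whether a cell leaves the G1 phase of the cell cycle: the D-type cyclins CCND1, CCND2 and CCND3, the kinases CDK4, CDK6 and CDK2, the inhibitors CDKN1B, CDKN2C and CDKN2D, and the retinoblastoma gene RB1. They were picked by symbol, and all 10 were found among the 25343 rows of each deposited expression table. RNA was sequenced from 4 libraries, 1 per group, of 2 human prostate cancer lines that carried a lentiviral shRNA and had been selected with an antibiotic. C4-2B ENZR cells resist enzalutamide, an androgen receptor antagonist, and were cultured with 20 µM of it. LNCaP cells respond to androgen and no drug is stated for them, and both media held 10% fetal bovine serum. In each line the control library (shCon) carried a non-targeting shRNA and the knockdown library (shMAOA) an shRNA against the coding region of MAOA, the gene of the mitochondrial enzyme monoamine oxidase A. The labels do not say whether the knockdown cells were pools or clones, and they name the knockdown libraries differently in the 2 lines, so the hairpins may not be the same.

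As background, D-type cyclins are made when growth factors are present and bind CDK4 or CDK6. These complexes phosphorylate the RB protein, which otherwise holds E2F transcription factors in check, and cyclin E with CDK2 completes that step before DNA synthesis. INK4 proteins, among them the products of CDKN2C and CDKN2D, bind CDK4 and CDK6, whereas p27, the product of CDKN1B, binds cyclin-CDK complexes and blocks CDK2. Androgen-dependent prostate cancer cells arrest in G1 when androgen is withdrawn, and much of the control of these proteins, p27 above all, lies in their phosphorylation and degradation, which RNA levels do not show.

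The values are CPM, read counts per 1e6 reads, scaled by the authors, from 23479051 to 52550452 recovered reads a library, so that 3 reads, the most that a gene with 0 reads may hold, equal 0.0529 to 0.122 CPM. MAOA went from 327 to 219 CPM in C4-2B ENZR (66.8% of control) and from 445 to 140 CPM in LNCaP (31.3%), a mean log2 ratio of -1.12 (limma adjusted p = 2.92e-11), which did not pass without a filter (0.125) or in DESeq2 (0.364). With the TMM scaling recomputed from the reads, its limma adjusted p was 0.0174. All 8 luminal prostate markers examined were at 1 CPM or more in every library, with summed levels of 3350 to 7690 CPM, although KLK3 was at only 3.72 and 6.34 CPM in C4-2B ENZR. The neuroendocrine markers summed to 1.42 to 2.80 CPM, the basal markers to 0.0404 to 1.15 CPM and the endothelial markers to 1.02 to 1.66 CPM. Of the fibroblast list, COL1A2 and DCN were at or near 0, while COL1A1 (44.4 to 60.9 CPM) and VIM were present. That list summed to 83.0 to 168 CPM. Of the leukocyte list, PTPRC and CD3E were at or near 0 and CD68 was present, with a sum of 10.1 to 25.0 CPM. The 2 lines were scaled in separate tables and carry different lane-like suffixes in their labels, so line, batch and scaling cannot be told apart, and levels are set side by side between lines without a comparison. With 1 library per group, the difference within a line has no replicate check. In bulk RNA, fewer cells in a state and less RNA per cell cannot be told apart.

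CDKN1B and CDKN2D had higher values in the knockdown library of both lines, but beyond counting error in LNCaP alone, whereas CDKN2C was lower in both. CCND1 was higher in LNCaP alone and CDK6 mainly in C4-2B ENZR. CCND3, CDK4, CDK2 and RB1 had log2 ratios between -0.22 and 0.06. Ratios below are log2 of (shMAOA CPM + 1)/(shCon CPM + 1), a scale that shrinks the change of genes with few reads, and 95% intervals are exact conditional ones on the reads, without the added 1 CPM, and cover counting error only. Over both lines, limma's moderated test on the 2 within-line ratios of 13114 genes (averaging 1 CPM or more in each table, Benjamini-Hochberg adjustment at 0.05) found that 1 of the 10 genes rose, CDKN1B, and that none fell. Of all genes tested 4.19% rose and 1.49% fell, 550 against 196, and after centring each line on its median ratio 570 against 536. At an unadjusted p under 0.05 there were 2 genes higher, CDKN1B and CDKN2D, and 0 lower, where 13.8% of all genes tested were higher and 5.38% lower. In edgeR with recomputed TMM and in DESeq2 0 of the 10 rose and 0 fell. The median of the 10 mean ratios was 0.00, beside 0.06 for all genes tested. Whether the lines differed in their response could not be tested.

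**Figure D1:**
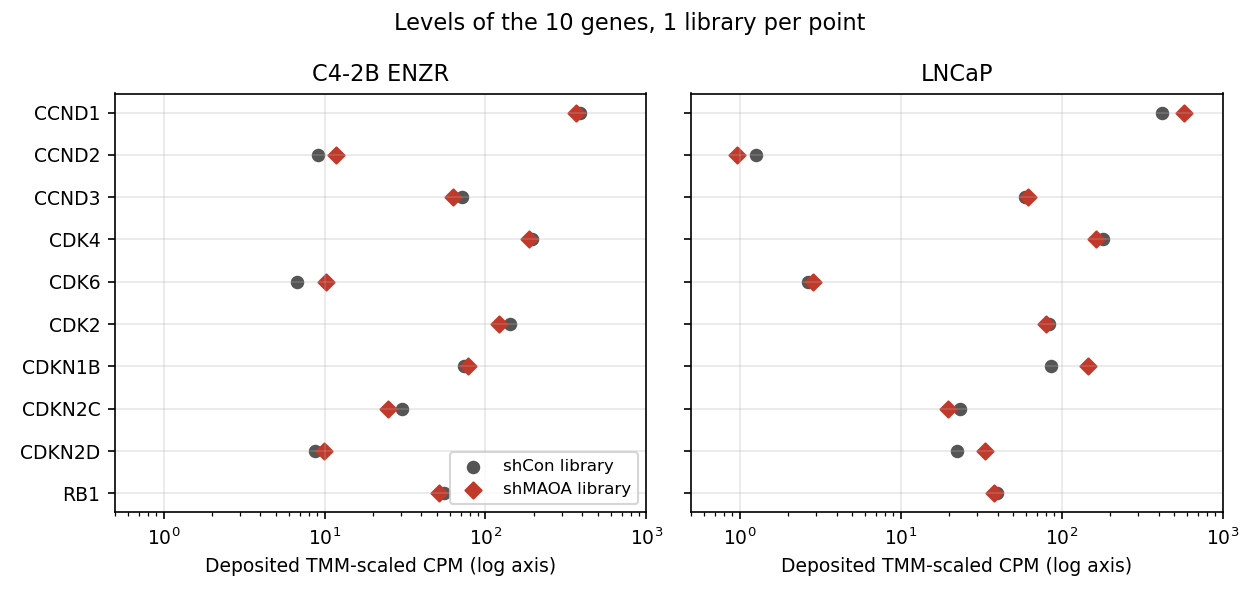
Deposited TMM-scaled CPM (log axis) of each of the 10 genes in the shCon (grey circles) and shMAOA (red diamonds) library of C4-2B ENZR (left) and LNCaP (right), 1 library per point. CDKN1B in LNCaP, at 85.6 and 146 CPM, shows the widest gap among the genes above 10 CPM.

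**Figure D2:**
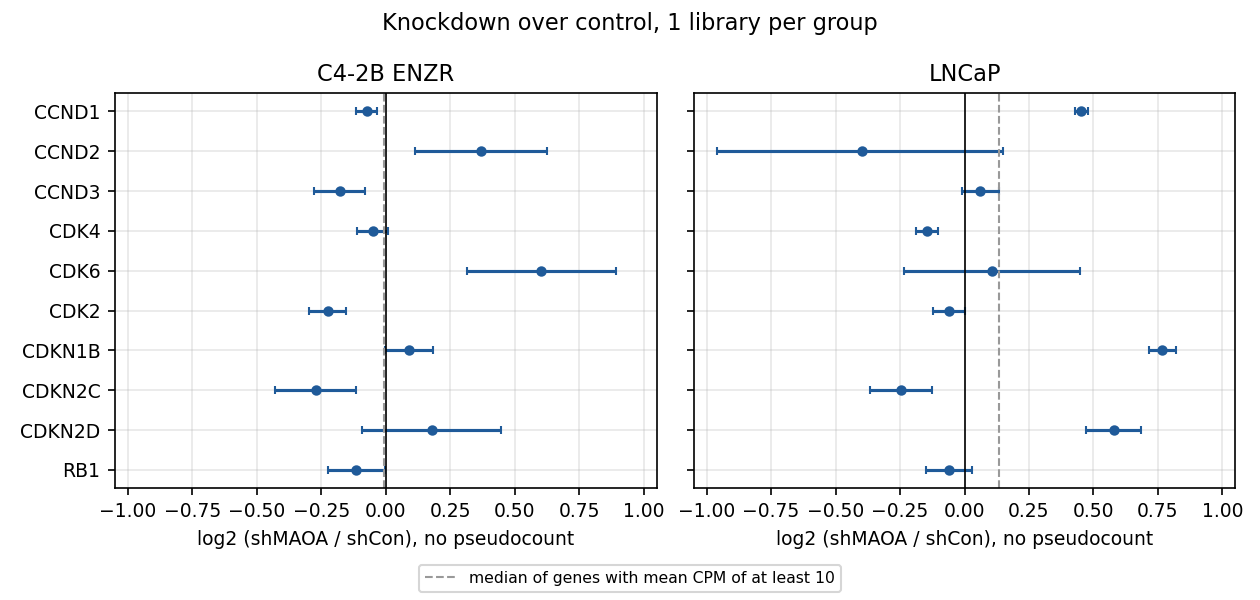
log2 of shMAOA over shCon for each gene without a pseudocount, with 95% exact conditional counting intervals as bars; the dashed line is the median ratio of genes averaging 10 CPM or more (-0.01 in C4-2B ENZR and 0.13 in LNCaP). In LNCaP the intervals of CDKN1B, CDKN2D and CCND1 lie above that median. Those of CDK4, CDKN2C, CDK2, RB1 and, barely, CCND3 lie below it, and of these CDK4 and CDKN2C also lie below 0.

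CDKN1B encodes p27 (Kip1), the inhibitor that keeps CDK2 idle in resting cells. It was at 73.7 CPM in the control and 78.3 CPM in the knockdown of C4-2B ENZR, with 85.6 and 146 CPM for LNCaP. The C4-2B ENZR libraries were nearly level (log2 ratio 0.09, interval -0.01 to 0.18), and the LNCaP knockdown stood 1.70-fold above its control (log2 ratio 0.76, interval 0.71 to 0.82). In reads, 4856 in the LNCaP control became 7112 in a knockdown library of slightly smaller total. It alone of the 10 genes passed 1.5-fold in LNCaP, where 4.98% of the 13787 genes averaging 1 CPM or more were 1.5-fold higher. In the mean of both lines CDKN1B rose by 0.42 (SE 0.13, limma adjusted p = 0.0222). That SE rests on a spread pooled over genes (218 prior degrees of freedom against 1 residual) and does not measure the distance between 0.09 and 0.76. With the deposited scaling edgeR also called it (adjusted p = 0.0215), as did limma after centring each line on its median ratio (0.0209). The call ended with the TMM scaling recomputed from the reads (limma adjusted p = 0.141, edgeR 0.125), with libraries rescaled to the same sum (limma, 0.0716), without a filter on low values (limma, 0.325) and in DESeq2 (0.271). Its mean ratio stayed between 0.31 and 0.43 in all 10 alternatives.

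The deposited scaling carries part of every LNCaP ratio. In that table it lies 0.12 log2 units above TMM recomputed on the same 2 libraries, and the median ratio of genes averaging 10 CPM or more is 0.13, against -0.01 in C4-2B ENZR. With recomputed TMM the LNCaP ratio of CDKN1B was 0.64, that of CDKN2D 0.44, that of CCND1 0.33 and that of CDKN2C -0.35. The prior degrees of freedom of the limma fit fell from 218 to 10.2 with that rescaling.

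**Figure D3:**
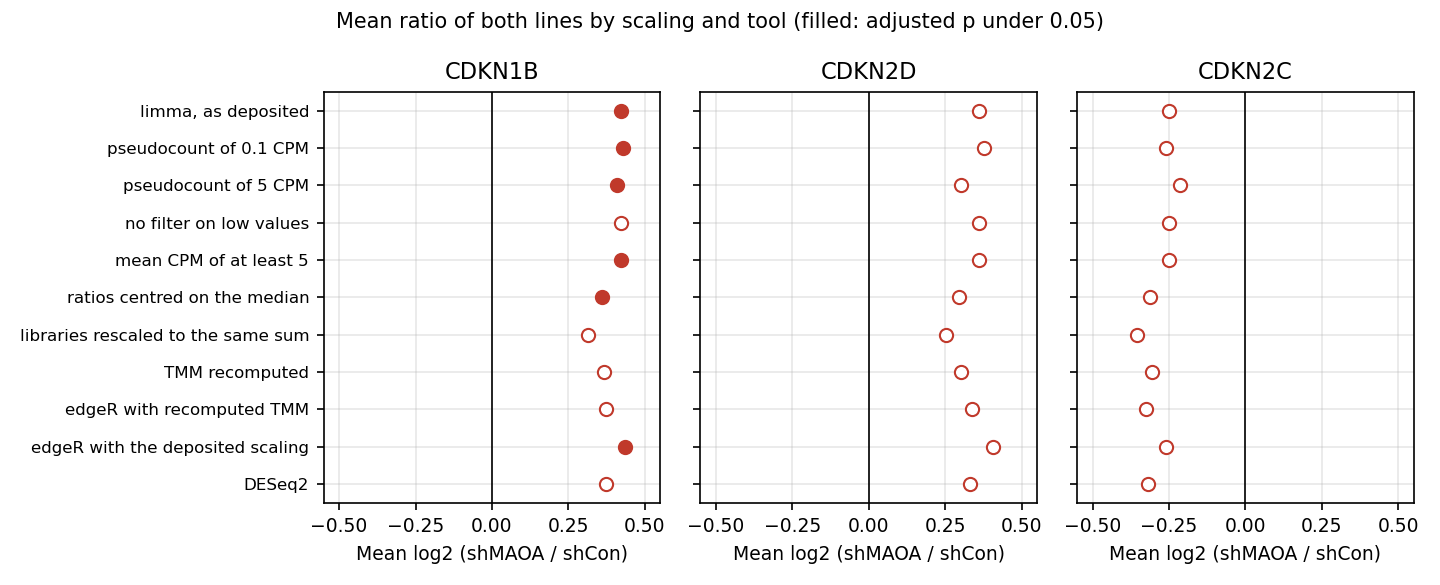
Mean log2 ratio of both lines for CDKN1B, CDKN2D and CDKN2C (columns) under the deposited scaling and the 10 alternatives (rows); filled circles have an adjusted p under 0.05. CDKN1B is filled in 6 of 11 rows, and the open circles lie at 0.31 to 0.42, close to the filled ones.

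CDKN2C and CDKN2D, which encode the INK4 proteins p18 and p19, had ratios of opposite sign. CDKN2D was at 8.78 CPM in the C4-2B ENZR control and 9.92 CPM in its knockdown, with 22.5 and 33.6 CPM for LNCaP. The knockdown library was the higher one in each line, with an interval that included equality in C4-2B ENZR (log2 ratio 0.16, interval -0.09 to 0.45) and not in LNCaP (0.56, interval 0.47 to 0.69). Its mean ratio of 0.36 (SE 0.15) did not pass (limma adjusted p = 0.141). CDKN2C was at 30.2 CPM in the C4-2B ENZR control and 25.0 CPM in its knockdown, with 23.4 and 19.7 CPM for LNCaP, the lower value in the knockdown each time (log2 ratios -0.26 and -0.24, both intervals below 0). Its mean ratio was -0.25 (SE 0.14) and did not pass either (limma adjusted p = 0.32).

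A share of reads within a library does not depend on how libraries are scaled. CDKN2D made up 22.5% of the reads of this INK4 pair in the C4-2B ENZR control (exact binomial 95% interval 19.9% to 25.3%) and 28.4% in the knockdown (25.4% to 31.6%). In LNCaP it made up 49.0% (47.1% to 51.0%) and 63.0% (61.2% to 64.9%). The ratio of CDKN2D to CDKN2C reads thus went up 1.37-fold in C4-2B ENZR and 1.77-fold in LNCaP, in the same direction under any scaling. The pair was chosen for this after its values had been seen. The reads of CDKN1B per read of CDK2, the kinase that p27 holds back, went from 0.523 to 0.650 in C4-2B ENZR and from 1.02 to 1.81 in LNCaP, a quotient likewise chosen afterwards.

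**Figure D4:**
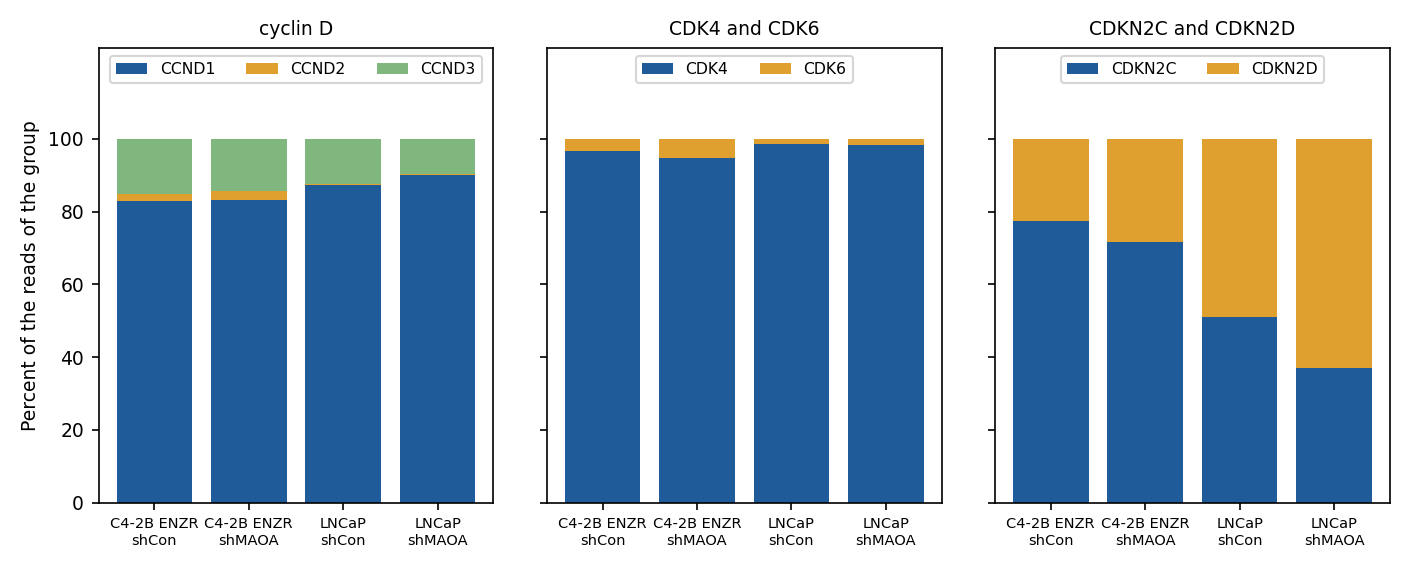
Percent of the summed reads of each gene group (cyclin D genes, CDK4 with CDK6, CDKN2C with CDKN2D) taken by each member in the 4 libraries, as stacked bars. The CDKN2D part grows from 22.5% to 28.4% in C4-2B ENZR and from 49.0% to 63.0% in LNCaP, while CCND1 and CDK4 fill most of the reads of their groups in every library.

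Promoter sequence is shown for the 2 inhibitor genes with higher values in both knockdowns, though beyond counting error in LNCaP alone. It comes from RefSeq's windows (GRCh38.p14, 250 bases before to 50 after a start). Of the 10 genes 7 had such windows, 12 windows in all, and CCND1, CCND2 and CDK2 had none. Capitals mark CCAAT, the word bound by the factor NF-Y, on either strand (ATTGG on the other). For CDKN1B, whose GENCODE 29 transcript starts earlier than RefSeq's, only sites of 30 bases are given, on the plus strand at chr12:12717182-12717211 and chr12:12717306-12717335. For CDKN2D the stretch before the GENCODE 29 start is given, 170 bases on the minus strand at chr19:10569060-10569229.
CDKN1B site 1: tcacgcgaccagCCAATctcccggcggcgc
CDKN1B site 2: ccgccgccgcaaCCAATggatctcctcctc
CDKN2D: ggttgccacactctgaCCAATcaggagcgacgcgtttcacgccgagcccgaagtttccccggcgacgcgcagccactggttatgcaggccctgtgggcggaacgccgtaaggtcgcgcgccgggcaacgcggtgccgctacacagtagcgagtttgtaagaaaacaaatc

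The CDKN1B window held CCAAT 3 times, counting 1 match after the RefSeq start that is not printed, and the CDKN2D window held it 1 time. On either strand CCAAT lay in 5 of the 12 windows and in 34.6% of all 35116 promoter windows. Besides CDKN1B and CDKN2D, windows of CDKN2C and CCND3 held it, so it is not particular to the genes with higher values. The E2F words searched on both strands were TTCCCGC along with TTCGCGC plus TTGCCGC and also TTGGCGC, and at least 1 of them lay in 13.0% of all windows and, among these genes, in 1 window of CDKN2C. On both strands the forkhead word GTAAACA lay in 3.42% of all windows and in 1 window of CCND3, and the GC box GGGCGG in 45.0% and in 8 of the 12. These matches are letters in a window, and no binding was measured.

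Among the cyclins, CCND1, the D-type cyclin that is often amplified in cancer, was at 385 CPM in the C4-2B ENZR control and 366 CPM in its knockdown, with 419 and 574 CPM for LNCaP. It was slightly lower in the C4-2B ENZR knockdown (log2 ratio -0.07, interval -0.12 to -0.03) and higher in the LNCaP knockdown (0.45, interval 0.43 to 0.48), and the mean did not pass (0.19, SE 0.14, limma adjusted p = 0.524). CCND3, the D-type cyclin best known from lymphoid cells, was at 71.0 CPM in the C4-2B ENZR control and 62.7 CPM in its knockdown, with 59.0 and 61.6 CPM for LNCaP. It was lower in the C4-2B ENZR knockdown (log2 ratio -0.18, interval -0.28 to -0.08). Its LNCaP ratio of 0.06 became -0.07 after centring on the median, so its direction there depends on the scaling. The mean ratio of CCND3 was -0.06 and did not pass (SE 0.12, limma adjusted p = 0.862). CCND2 was sparse, with 226 reads in the C4-2B ENZR control and 290 in its knockdown (9.14 and 11.8 CPM), while LNCaP had 72 and 47 reads (1.27 and 0.962 CPM). Its counting interval excluded equality in C4-2B ENZR (0.11 to 0.63) and included it in LNCaP (-0.96 to 0.15). Its mean ratio of 0.06 (SE 0.17, limma adjusted p = 0.898) changed sign with other settings.

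CCND1 took 82.8% of the cyclin D reads in the C4-2B ENZR control and 83.1% in its knockdown, and 87.4% and 90.2% in LNCaP. In C4-2B ENZR the 95% intervals of the CCND1 share overlapped (82.1% to 83.5% and 82.4% to 83.8%), and in LNCaP they did not (87.0% to 87.8% and 89.8% to 90.5%). The CCND3 share was 15.3% in the C4-2B ENZR control and 14.2% in its knockdown, with 12.3% and 9.68% for LNCaP. Per kilobase of the longest coding transcript in GENCODE 29, the CCND1 share was 74.2% to 83.7% over the 4 libraries.

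Of the kinases, CDK4 was at 194 CPM in the C4-2B ENZR control and 187 CPM in its knockdown, with 180 and 163 CPM for LNCaP, lower in the knockdown each time (log2 ratios -0.05 and -0.15). Exons of TSPAN31, at 10.6 to 32.7 CPM, overlap 43.2% of the annotated exon bases of CDK4 on the opposite strand, and no use of strand in counting is stated. Other genes overlap smaller parts of the exons of CDK2 (14.5% at most), CCND2 (13.8% at most, on the same strand) and CCND1 (10.3%). CDK2, the partner of cyclins E and A, was at 141 CPM in the C4-2B ENZR control and 121 CPM in its knockdown, with 83.9 and 80.5 CPM for LNCaP. It too was lower in both knockdowns, by log2 ratios of -0.22 and -0.06, and neither kinase passed (limma adjusted p = 0.749 for CDK4 and 0.589 for CDK2). Counting intervals included equality for CDK4 in C4-2B ENZR (-0.11 to 0.01) and, barely, for CDK2 in LNCaP (-0.12 to 0.00026). They lay below 0 for CDK4 in LNCaP (-0.19 to -0.10) and for CDK2 in C4-2B ENZR (-0.30 to -0.16). CDK6, the close relative of CDK4 that dominates in blood cells, was at 6.75 CPM in the C4-2B ENZR control and 10.2 CPM in its knockdown (167 and 252 reads), with 2.66 and 2.87 CPM for LNCaP (151 and 140 reads).

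CDK6 was the highest ratio of the 10 in C4-2B ENZR (log2 0.54, interval 0.31 to 0.89), above 97.8% of the expressed genes of that table, and was near level in LNCaP (0.08, interval -0.24 to 0.45). Its mean ratio of 0.31 did not pass (SE 0.17, limma adjusted p = 0.318). With the pseudocount of 1 CPM none of the 10 genes was 1.5-fold higher in C4-2B ENZR, where 1.59% of 13810 genes were, and none was 1.5-fold lower there (0.963% of all) or in LNCaP (1.57% of all). With a pseudocount of 0.1 CPM, CDK6 passed 1.5-fold in C4-2B ENZR. Its LNCaP ratio became -0.06 after centring, so no direction is given there. The CDK6 share of the summed CDK4 and CDK6 reads was 3.37% in the C4-2B ENZR control (interval 2.88% to 3.91%) and 5.20% in the knockdown (4.59% to 5.86%), and 1.46% and 1.73% in LNCaP, with overlapping intervals (1.23% to 1.70% and 1.46% to 2.04%).

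RB1, whose product is the substrate of these kinases, was at 55.3 CPM in the C4-2B ENZR control and 51.1 CPM in its knockdown, with 39.4 and 37.8 CPM for LNCaP. Its log2 ratios were -0.11 and -0.06. The interval barely excluded equality in C4-2B ENZR (-0.23 to -0.0025) and included it in LNCaP (-0.15 to 0.03). RB1 did not pass (mean -0.09, SE 0.13, limma adjusted p = 0.788). RNA levels say nothing of the phosphorylation that sets its activity.

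Levels can be set against each other between genes only per length, here as CPM per kilobase of the longest coding transcript in GENCODE 29. On that scale CDK4 (93.3) and CCND1 (89.5) led in the C4-2B ENZR control, followed by CDK2 (61.4), CCND3 (29.7), CDKN1B (27.7), RB1 (11.5), CDKN2C (10.4), CDKN2D (6.17), CCND2 (1.41) and CDK6 (0.582). In its knockdown CDKN1B (29.5) and CCND3 (26.2) traded places, and the other ranks were the same. In the LNCaP control CCND1 (97.3) stood above CDK4 (86.8), then came CDK2 (36.6), CDKN1B (32.2) and CCND3 (24.6), and CDKN2D (15.8) ranked above RB1 (8.23) and CDKN2C (8.05), with CDK6 (0.229) and CCND2 (0.196) last. In the LNCaP knockdown CDKN1B (54.8) moved above CDK2 (35.0). CDK4 and CCND1 held the first places and CDK6 and CCND2 the last in all 4 libraries. With no replicate the spread of a level is unknown, so neighbours in this order cannot be called different. The order depends on the transcript used, since the longest and shortest coding transcripts have 11612 and 1465 bases for CDK6, 4307 and 553 for CCND1, and 4793 and 633 for RB1. Per kilobase of the shortest, in the C4-2B ENZR control, CCND1 (697) stood above CDK4 (347), and RB1 (87.4) above CDKN1B (82.1) and CCND3 (56.5), while CDK6 (4.61) and CCND2 (1.41) were again the lowest.

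The other genes of the pathway, from 6 lists chosen with earlier results of these data in view, were tested in the same limma fit. The lists overlap, since the E2F targets include some genes of the cyclin E and A arm and of the E2F factors. The CDK inhibitor CDKN1A, which encodes p21, rose (92.7 to 143 CPM and 147 to 443 CPM, mean log2 ratio 1.10, limma adjusted p = 5.64e-12). Its log2 ratios were 0.62 in C4-2B ENZR and 1.59 in LNCaP, and that p-value, resting on a spread pooled over genes, does not measure their distance. With recomputed TMM its limma adjusted p was 0.00912. CDKN1A did not pass without a filter (limma, 0.106) or in DESeq2 (0.224). The other 4 inhibitors of that list (CDKN1C, CDKN2A, CDKN2B and CDKN3) did not pass. CDKN1C had log2 ratios of 0.06 in C4-2B ENZR and 0.66 in LNCaP, CDKN2A of -0.01 and -0.40, and CDKN2B of -0.48 and 0.10. CDKN3, a phosphatase that acts on CDK2, was at 44.0 CPM in the C4-2B ENZR control and 41.9 CPM in its knockdown, with 28.1 and 23.8 CPM for LNCaP. The median of that list was -0.15. None of 5 tested genes of the cyclin E and A arm passed (median -0.24), and CCNA1 was too low to test. CCNA2, the S-phase cyclin, had log2 ratios of -0.21 and -0.41 in C4-2B ENZR and LNCaP. The E-type cyclin gene CCNE1 had ratios of 0.02 and 0.26, and CCNE2 of -0.55 and 0.07. Of 12 pocket protein, E2F and DP genes none passed (median -0.09). The relatives of RB1 stood on opposite sides, RBL1 (p107) with log2 ratios of -0.20 and -0.46 and RBL2 (p130, typical of resting cells) with 0.15 and 0.46.

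None of 3 genes of the CDK-activating kinase passed (median 0.11), CCNH, its cyclin, having ratios of 0.19 and 0.03. None of 12 genes for the turnover of G1 cyclins and p27 passed (median 0.02). SKP1, the SCF ligase adaptor, was at 207 CPM in both C4-2B ENZR libraries, with 230 and 236 CPM for LNCaP. SKP2, the receptor that marks p27 for degradation, had log2 ratios of 0.01 and 0.02, and its cofactor gene CKS1B -0.03 and 0.08. Beside 1.49% of all genes tested that fell and 4.19% that rose, 5 of 20 E2F target genes of the G1/S transition fell and none rose (median -0.28). Those that fell were PCNA, the replication clamp gene (mean log2 ratio -0.89), MCM5 (-0.49), MCM4 (-0.44) and MCM7 (-0.42) of the replicative helicase, and UHRF1 (-0.47), which helps copy DNA methylation. With recomputed TMM, MCM4 (limma adjusted p = 0.0535) and MCM7 (0.0526) no longer passed, and MCM7 missed in edgeR with the deposited scaling too (0.0548). TYMS, the thymidylate synthase gene, did not pass as deposited (limma, 0.0678) and passed with recomputed TMM (limma 0.0457, edgeR 0.0422). Without a filter on low values 1 of the 5, PCNA, still passed in limma, and after centring 11 of the 20 did. MCM2, also of the helicase, did not pass (limma adjusted p = 0.0813), at 388 CPM in the C4-2B ENZR control and 333 CPM in its knockdown, with 194 and 136 CPM for LNCaP. A median here describes its list beside 0.06 for all genes tested, and was not tested itself.

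**Figure D5:**
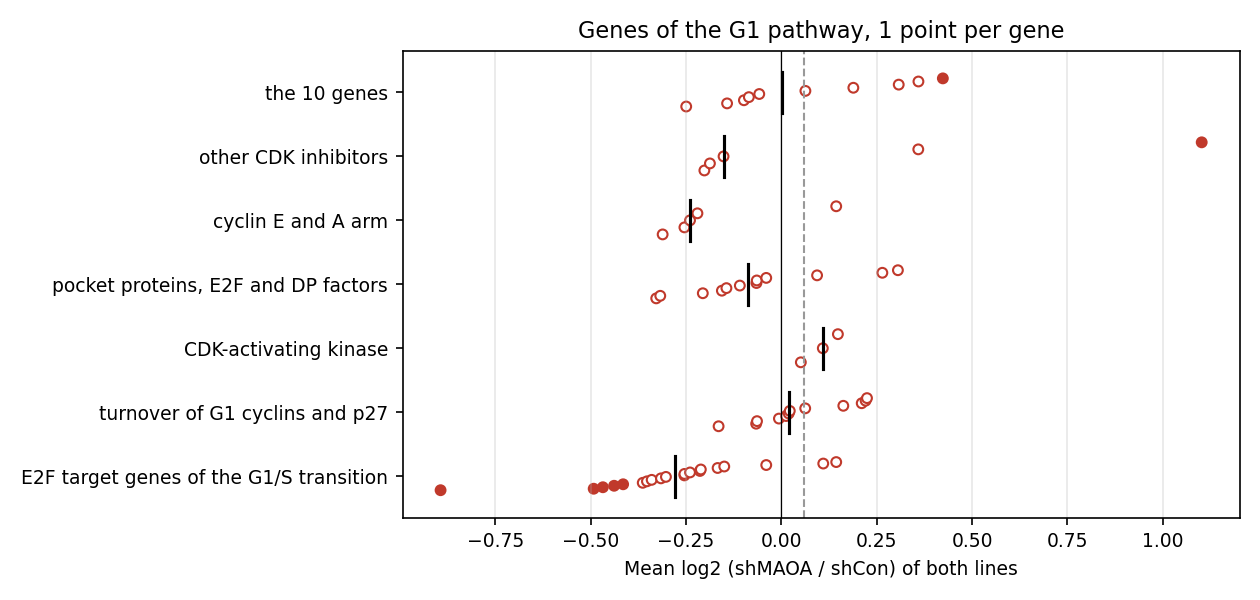
Mean log2 ratio of both lines for each tested gene of the 10 and of the 6 pathway lists, 1 point per gene in each list. Filled points passed limma, black bars are list medians and the dashed line is the median of all genes tested (0.06). Besides CDKN1B, the filled points are CDKN1A on the right and 5 E2F targets on the left.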

How the data were processed

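The authors deposited 2 tables, 1 per line, of TMM-scaled CPM for 25343 symbols. Per the submitters' processing notes, Bowtie2 2.1.0, RSEM 1.2.15, edgeR and build hg19 were used. For annotation and filters, details were not given in the sources used here. For C4-2B ENZR, the deposited table was taken as CPM and the deposited LNCaP table as a signal on the CPM scale, because its knockdown column sums to 1064500. Dividing by the step of 1 read gave whole reads, to within 0.01 read, for 100% of values, and these reads were used for intervals and count tests. Each ratio was taken within a table with a pseudocount of 1 CPM.

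Genes averaging 1 CPM or more in each table were tested with limma 3.58.1 (R 4.3.3), as the mean of 2 ratios with a trended prior, with the lines as the only replicates. Nothing in the labels shows separate cultures within a group. Alternatives were other pseudocounts, filters and scalings, edgeR 4.0.16 (quasi-likelihood) and DESeq2 1.42.0, the last 2 with line as a covariate. The 10 genes and the lists were chosen with earlier results of these data known. Named genes were the 10, MAOA and, per list, up to 4 that passed and, of those that did not, the one with the highest mean CPM over the 4 libraries, not divided by length; a few others were named after their values were seen (CDKN1C, CDKN2A, CDKN2B, CCNE1, CCNE2, CCNA1, RBL1, SKP2, CKS1B, TYMS and MCM7). Intervals cover counting error only.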

Additional observations from a re-analysis of the deposited data

Results flagged for a closer look

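CCND1 stood out because its 2 ratios lay on opposite sides of 0 with counting intervals that excluded equality in each line: -0.07 in C4-2B ENZR and 0.45 in LNCaP, 0.53 apart on the log2 scale. With 1 library per group the difference between the lines was not tested.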

How the results depend on the processing

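Of 98 values of the 10 mean ratios under alternatives, 90 kept direction and side of the threshold, 5 (all CDKN1B) no longer passed and 3 (all CCND2, close to 0) changed sign: -0.000930 with a pseudocount of 0.1 CPM, -0.000704 after centring and -0.026 in DESeq2. CCND2 and CDK6 have no value under the filter of 5 CPM. The number of these genes that rose went from 1 to 0 without a filter, with libraries rescaled to the same sum, with recomputed TMM in limma or edgeR, and in DESeq2. Over all genes limma gave 550 that rose and 196 that fell. These became 15 and 6 without a filter, 340 and 632 with libraries rescaled to the same sum, 152 and 103 with recomputed TMM, 175 and 128 in edgeR with recomputed TMM, and 132 and 90 in DESeq2, and 570 rose and 536 fell after centring. The count of genes 1.5-fold higher became 1 (CDK6) for C4-2B ENZR if the pseudocount was 0.1 CPM, and in LNCaP 0 with libraries rescaled to the same sum or at 2-fold. The number of E2F targets that fell, 5 as deposited, was 1 without a filter, 11 after centring, 13 with the same sum, 4 with recomputed TMM in limma or edgeR, 4 in edgeR with the deposited scaling, and 5 in DESeq2, with the other pseudocounts and with the filter of 5 CPM. After centring or with the same sum, 1 gene of the cyclin E and A arm and 2 of the pocket protein list fell. CDKN1A did not pass without a filter or in DESeq2. Leaving out a line leaves 1 ratio and no test; the ratios of each line are given above. The cause was not tested. Low counts limit CCND2 and CDK6 in LNCaP, with 47 to 151 reads a library, although the LNCaP libraries are the deeper ones.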
